A study of Homo sapiens with 9 samples.

Results

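Transcripts of 7 adhesion molecules of the immunoglobulin superfamily were followed in OV90 cells and in the lines OV90CisR1 and OV90CisR2. The members were chosen by name around ALCAM, which was itself selected for its rise in these data, and are ALCAM, MCAM, NCAM1, L1CAM, CADM1, ICAM1 and VCAM1. All 7 had a row among the 43424 gene symbols of the deposited table. CPM is a gene's count scaled to the total of its library. A gene was tested where 3 or more of the 9 libraries reached 1 CPM. This kept 14233 genes and 3 of the 7 members, ALCAM, L1CAM and NCAM1. MCAM, CADM1, ICAM1 and VCAM1 did not reach that level and are given below as too low to judge.

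OV90 is labelled sensitive and was grown in MCDB-105 medium with serum and antibiotics. OV90CisR1 and OV90CisR2 are labelled resistant and were kept in the same medium with cisplatin, a platinum drug that crosslinks DNA. Resistance and exposure to the drug therefore cannot be told apart. Epithelial-mesenchymal transition is named in the title of the series. Each group had 3 libraries of total RNA read from the 3′ end. The labels used here give neither the cisplatin dose, nor whether each resistant line is a single clone, nor whether replicates were separate cultures, and a p-value here measures only how far these libraries spread, which may be technical.

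The immunoglobulin superfamily of cell adhesion molecules consists of membrane proteins whose outer part is built of immunoglobulin-like domains. They bind the same molecule or a different partner on a neighbouring cell, and many are cut from the cell surface by metalloproteases. ALCAM (CD166) binds itself and the lymphocyte receptor CD6. L1CAM and NCAM1 guide neurites in the nervous system, and L1CAM is also found in carcinomas of the ovary and endometrium. ICAM1 and VCAM1 are the ligands that leukocyte integrins use on endothelium, where inflammatory cytokines induce them through NF-kappaB.

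The libraries held 5825708 to 7607679 recovered reads and 17761 to 19153 genes above 0. Pearson r of log2 values over tested genes was 0.955 to 0.957 between OV90 replicate 3 and the others of its group, and 0.941 to 0.942 for OV90CisR1 replicate 3. It was 0.978 to 0.982 within OV90CisR2. The endothelial markers PECAM1, VWF, KDR and CLDN5 were at 0 in all 9 libraries. So were the lymphocyte markers CD3D, CD3E and MS4A1. Other listed markers of these kinds had reads. Of 16 leukocyte markers, 6, 6 and 7 were at 0 throughout OV90, OV90CisR1 and OV90CisR2, and of 16 endothelial and fibroblast markers 8, 7 and 5. Of the ovarian carcinoma markers, KRT19 and CLDN3 were also at 0 in every library. Of those that passed the filter, KRT8, a keratin of simple epithelia, averaged 10.7, 16.9 and 68.5 normalised reads in OV90, OV90CisR1 and OV90CisR2, and EPCAM, a marker of epithelial cells, averaged 44.9, 50.2 and 35.7. The identity of the cells is therefore given as labelled.

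The sequence around the annotated start of ALCAM is shown because this gene carried by far the largest difference among the members. RefSeq places the start on the plus strand of chromosome 3, and the 300 bases from chr3:105366659-105366958 (GRCh38.p14) are printed 5′ to 3′, with the GC box GGGCGG, the binding motif of Sp1-like factors, in capitals.
ALCAM: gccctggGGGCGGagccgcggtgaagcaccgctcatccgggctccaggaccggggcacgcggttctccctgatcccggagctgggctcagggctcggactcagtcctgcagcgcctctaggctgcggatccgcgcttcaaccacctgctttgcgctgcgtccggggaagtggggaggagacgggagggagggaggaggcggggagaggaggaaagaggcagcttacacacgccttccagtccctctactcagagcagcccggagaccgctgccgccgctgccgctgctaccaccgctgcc
The window had a GC content of 70% and 26 CpG dinucleotides, where the median of 35116 RefSeq promoters of the same length was 14. Its GC box began 243 bases upstream of the annotated start. On both strands, GGGCGG was found in 44.95% of all promoters. The window also held 1 match to the E-box CAGGTG, bound by repressors of the SNAI and ZEB families, a motif present in 20.59% of promoters. It held no TATAAA, which 11.53% of promoters hold, and no match to the NF-kappaB consensus, which 11.27% hold. A match or its absence describes these letters only. Such windows were matched for 5 of the 7 members, ALCAM, MCAM, L1CAM, ICAM1 and VCAM1, and not for NCAM1 and CADM1. Counted on both strands, the NF-kappaB consensus gave 2 matches for MCAM and 2 for VCAM1. In each window these were the same bases read from either strand, so they mark 1 place. It gave none for L1CAM and ICAM1.

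ALCAM was low in OV90, intermediate in OV90CisR2 and high in OV90CisR1. It stood at 85.4, 96.4 and 88.1 normalised reads in OV90 replicates 1 to 3. In OV90CisR1 it stood at 1582, 1394 and 1461, and in OV90CisR2 at 163, 185 and 155. No groups overlapped, and the lowest OV90CisR1 library lay above every library of the other groups. The means were 89.95 ± 5.72 (SD, n = 3) in OV90, 1479 ± 95.2 in OV90CisR1 and 168 ± 15.9 in OV90CisR2. These values rest on 280, 4145 and 547 recovered reads summed over the libraries of each group.

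**Figure D1:**
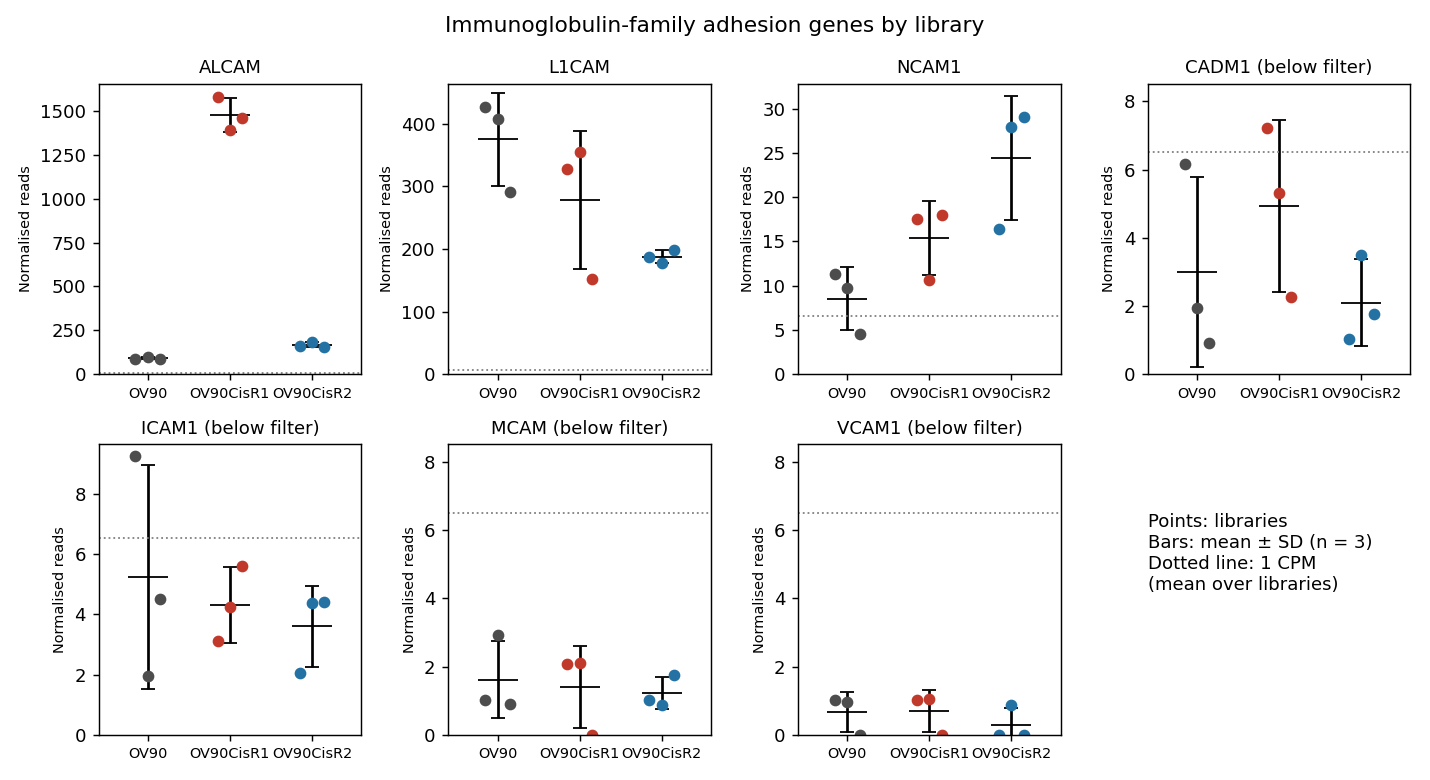
Normalised reads of the 7 members (y axis, linear, a separate scale for each gene) in OV90, OV90CisR1 and OV90CisR2 (x axis), with a point for each library, bars for the mean ± SD (n = 3) and a dotted line at 1 CPM. ALCAM separates the groups with OV90CisR1 near 1479, L1CAM is lowest in OV90CisR2, NCAM1 is highest there, and the 4 genes marked below filter lie mostly under the line.

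The log2 fold change of ALCAM was 4.02 ± 0.14 (SE) in OV90CisR1 against OV90, a 16.3-fold difference on the log2(value + 1) scale used for all fold changes here. In the order of upward changes it took rank 16 of 14233 genes. In OV90CisR2 against OV90 the log2 fold change was 0.89 ± 0.14, or 1.85-fold. OV90CisR2 held 11.3% of the mean level of OV90CisR1, a log2 fold change of -3.14 ± 0.14. Because the gene was picked for this difference, the values are a description and carry no p-value. With any 1 library left out, the log2 fold change against OV90 stayed between 3.97 and 4.07 for OV90CisR1 and between 0.81 and 0.94 for OV90CisR2. In bulk RNA, fewer cells that express a gene and less of its RNA per cell cannot be told apart, here and in the results that follow.

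A second transcript unit inside ALCAM had the same order of levels. LOC124906263, a long non-coding RNA in RefSeq, lies at chr3:105438883-105451274, wholly within ALCAM (chr3:105366909-105576900, GRCh38.p14). In 2 GENCODE transcripts of ALCAM, ALCAM-201 and ALCAM-205, that interval falls inside intron 1. It had 4.11, 4.87 and 6.30 normalised reads in OV90, 83.7, 101 and 64.0 in OV90CisR1, and 6.14, 14.0 and 12.3 in OV90CisR2. The libraries of OV90CisR1 lay above all others, while OV90 and OV90CisR2 overlapped. Its log2 fold change was 3.77 ± 0.37 (SE) in OV90CisR1 against OV90, 0.90 ± 0.37 in OV90CisR2 against OV90 and -2.87 ± 0.37 in OV90CisR2 against OV90CisR1. The strand handling of the counting is not given in the sources used here, so reads of the overlapping genes cannot be told apart. The values therefore carry no p-value, as for ALCAM.

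The ratio of ALCAM to LOC124906263 was 18.2 ± 3.65 (SD, n = 3) in OV90, 18.5 ± 4.50 in OV90CisR1 and 17.4 ± 7.85 in OV90CisR2. The ranges, 14.0 to 20.8, 13.8 to 22.8 and 12.6 to 26.5, overlapped throughout. The non-coding gene took 5.41% of the summed reads of both genes in OV90, 5.32% in OV90CisR1 and 6.17% in OV90CisR2. The exact binomial 95% intervals were 3.12% to 8.63%, 4.68% to 6.03% and 4.36% to 8.45%, and they cover counting error only.

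CBLB, a ubiquitin ligase, was the other tested gene within 1 Mb of ALCAM, among 13 neighbours with a row in the table. It had 21.6, 25.3 and 22.5 normalised reads in OV90, 32.0, 25.5 and 16.9 in OV90CisR1, and 9.21, 17.5 and 9.68 in OV90CisR2. OV90 and OV90CisR1 overlapped, at a log2 fold change of 0.05 ± 0.36 (95% interval -0.73 to 0.83, limma adjusted p = 0.93). In OV90CisR2 every library lay below those of OV90, with a log2 fold change of -0.93 ± 0.36 that did not pass the test (adjusted p = 0.20).

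**Figure D2:**
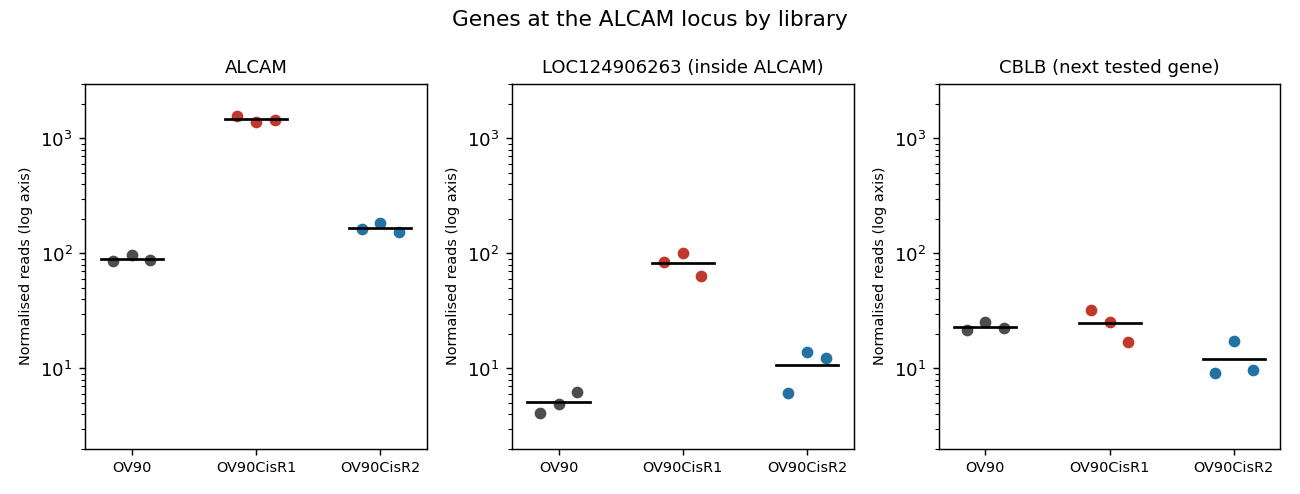
Normalised reads (y axes, log scale) by group (x axis) for ALCAM, LOC124906263 inside it and the neighbour CBLB, with a point for each library and a bar for each group mean. ALCAM and LOC124906263 are highest in OV90CisR1, with means of 1479 and 82.8, while the CBLB libraries of OV90 and OV90CisR1 overlap.

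The genes whose pattern over the 9 libraries was most like that of ALCAM were sought among 2788 tested genes whose group means differed by at least 1 on the log2 scale. The highest Pearson r was 0.9928, for CNNM3, a member of a family linked to magnesium transport. PPT2, a lysosomal thioesterase, had an r of 0.9901. LOC124905182 followed with 0.9818. TMED1, a membrane protein of the early secretory pathway, and PRL, the hormone prolactin, both had 0.9805. The points share libraries and a group order, so these coefficients describe 9 libraries in 3 groups. CNNM3 averaged 156 ± 3.57 normalised reads (SD, n = 3) in OV90, 350 ± 10.1 in OV90CisR1 and 196 ± 16.2 in OV90CisR2. PRL averaged 716 ± 160 in OV90, 2693 ± 98.5 in OV90CisR1 and 986 ± 51.5 in OV90CisR2. The span of ALCAM between the lowest and highest group was wider than that of either gene.

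L1CAM was the other well-detected member, and it was lowest in OV90CisR2. It stood at 428, 408 and 291 normalised reads in OV90, 328, 355 and 152 in OV90CisR1, and 187, 178 and 198 in OV90CisR2. Every OV90CisR2 library lay below every OV90 library, whereas OV90CisR1 overlapped both other groups, its replicate 3 lying at 152 and OV90 replicate 3 at 291. The means were 375 ± 74.2 (SD, n = 3), 278 ± 111 and 188 ± 10.2, on 1158, 788 and 611 recovered reads.

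OV90CisR2 thus held 50.0% of the mean L1CAM level of OV90, with a log2 fold change of -0.98 ± 0.28 (SE) and a 95% interval from -1.60 to -0.35. It did not pass the test over all genes, with a limma adjusted p of 0.095 and an unadjusted p of 0.0054. The adjusted p was 0.048 without OV90 replicate 3 and 0.0030 without OV90CisR1 replicate 3, the libraries that stood apart. It was 0.0095 in a fit of these groups alone, 0.015 with DESeq2 and 0.067 with edgeR, and over all alternatives it ran from 5.7e-06 to 0.30. That range includes the fit without both libraries that stood apart, which was chosen after seeing the data. Against OV90, OV90CisR1 had a log2 fold change of -0.50 ± 0.28 (95% interval -1.13 to 0.12, adjusted p = 0.24). OV90CisR2 against OV90CisR1 had -0.47 ± 0.28 (95% interval -1.10 to 0.15, adjusted p = 0.30). Without OV90CisR1 replicate 3, the latter was -0.86 with an adjusted p of 0.0094.

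L1CAM lies at chrX:153861514-153886173. Its antisense gene L1CAM-AS1 was below the filter and too low to judge, averaging 1.30 normalised reads in OV90 and 0 in the other groups. By the same measure of likeness, MOSPD2, a protein of membrane contact sites, came first for L1CAM with an r of 0.9652, and LOC124902144 came second with 0.9487. MOSPD2 averaged 127 ± 38.2 normalised reads (SD, n = 3) in OV90, 85.3 ± 27.9 in OV90CisR1 and 56.9 ± 2.57 in OV90CisR2.

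NCAM1, the neural cell adhesion molecule, was near the detection limit and highest in OV90CisR2. It stood at 11.3, 9.73 and 4.50 normalised reads in OV90, 17.6, 10.6 and 18.0 in OV90CisR1, and 16.4, 28.0 and 29.0 in OV90CisR2. OV90 and OV90CisR2 did not overlap, and OV90CisR1 overlapped both. The summed recovered reads were 26 in OV90, 43 in OV90CisR1 and 81 in OV90CisR2, with exact Poisson 95% intervals of 17.0 to 38.1, 31.1 to 57.9 and 64.3 to 101. The means were 8.51 ± 3.57 (SD, n = 3), 15.4 ± 4.14 and 24.5 ± 7.03.

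In OV90CisR2 against OV90, NCAM1 had a log2 fold change of 1.46 ± 0.42 (SE) with a 95% interval from 0.54 to 2.38. It did not pass over all genes, with a limma adjusted p of 0.091 and an unadjusted p of 0.0050. DESeq2 alone among the alternatives gave an adjusted p under 0.05, at 0.048, and the others gave 0.053 to 0.31. OV90CisR1 against OV90 had 0.83 ± 0.42 (95% interval -0.09 to 1.75, adjusted p = 0.19), and OV90CisR2 against OV90CisR1 had 0.63 ± 0.42 (95% interval -0.29 to 1.55, adjusted p = 0.35). NCAM1 lies at chr11:112961420-113278436, and its antisense gene NCAM1-AS1 was at 0 in every library. Most like it were SNORA28, a small nucleolar RNA, with an r of 0.9581, and UBAC2-AS1 with 0.9392. SNORA28 averaged 2.0, 16.1 and 45.8 normalised reads in the 3 groups.

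**Figure D3:**
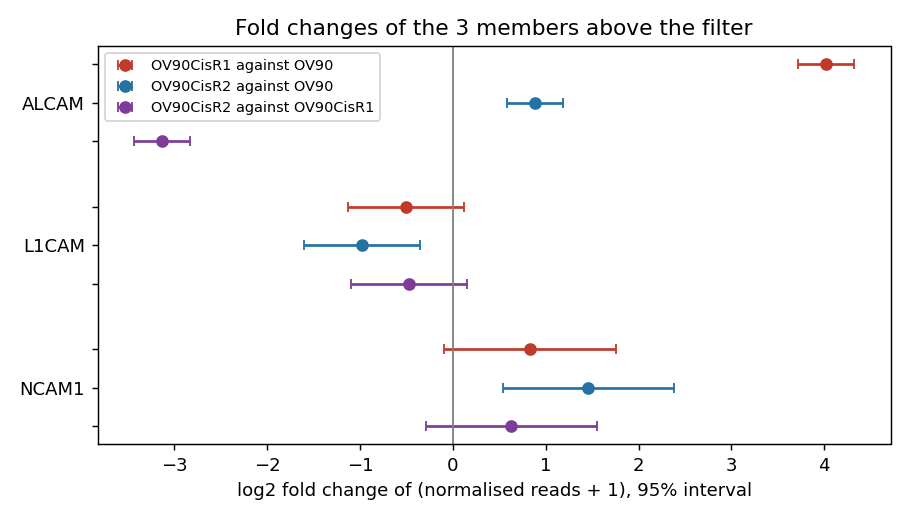
Log2 fold changes with 95% intervals (x axis) of ALCAM, L1CAM and NCAM1 (y axis) in the 3 comparisons. ALCAM reaches 4.02 in OV90CisR1 against OV90, and in OV90CisR2 against OV90 the intervals of L1CAM and NCAM1 lie on opposite sides of 0.

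CADM1 (chr11:115169236-115504415), which holds epithelial cells together through contacts between like and unlike molecules, was too low to judge. It had 6.17, 1.95 and 0.899 normalised reads in OV90, 7.23, 5.30 and 2.25 in OV90CisR1, and 1.02, 3.50 and 1.76 in OV90CisR2. All groups overlapped, and 1 library of OV90CisR1 reached 1 CPM, which was worth 6.26 to 6.83 normalised reads. The summed reads were 9, 14 and 7. The ratio of OV90CisR1 to OV90 was 1.73 with an exact 95% counting interval from 0.697 to 4.53, and that of OV90CisR2 to OV90 was 0.743 with an interval from 0.235 to 2.24.

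ICAM1 (chr19:10271120-10286615), a ligand of the leukocyte integrin LFA-1, was also too low to judge. It had 9.25, 1.95 and 4.50 normalised reads in OV90, 3.10, 4.24 and 5.62 in OV90CisR1, and 2.05, 4.37 and 4.40 in OV90CisR2. All groups overlapped, and the highest value, in OV90 replicate 1, was the only one above 1 CPM. The summed reads were 16, 12 and 12. The counting interval of the ratio to OV90 ran from 0.360 to 1.88 around 0.833 for OV90CisR1, and from 0.309 to 1.61 around 0.717 for OV90CisR2.

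MCAM (CD146, chr11:119308529-119317130), an adhesion molecule of endothelium and melanoma, held 5, 4 and 4 summed reads in OV90, OV90CisR1 and OV90CisR2. Its highest library, OV90 replicate 2, had 2.92 normalised reads. The ratio to OV90 was 0.889 for OV90CisR1 (exact 95% counting interval 0.176 to 4.13) and 0.764 for OV90CisR2 (0.152 to 3.55). VCAM1 (chr1:100719742-100739045), the ligand of the integrin VLA-4, held 2, 2 and 1 summed reads and was at 0 in 4 libraries. No ratio is given for VCAM1, since no group exceeded the 3 reads taken as the floor. In a limma fit without the filter on low values, over 25283 genes, these 4 members had adjusted p-values between 0.51 and 1. At this depth no difference between groups was detectable in any of them. NCAM1, with 8 of its 9 libraries at 1 CPM, was the tested member nearest to the filter, and CADM1 and ICAM1, with 1 library each, were nearest below it.

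Leaving aside ALCAM, which was chosen for its difference, limma called 0 of the 2 other tested members in each comparison. At an unadjusted p under 0.05 there were 0, 2 and 0 in OV90CisR1 against OV90, OV90CisR2 against OV90 and OV90CisR2 against OV90CisR1. Of these members, edgeR called 0 in each comparison, and DESeq2 called 0, 2 and 0. Over all tested genes, 15.8% were called in OV90CisR1 against OV90, with 8.54% higher and 7.29% lower. For OV90CisR2 against OV90, 3.29% were called, with 2.35% higher and 0.941% lower. Comparing OV90CisR2 with OV90CisR1, 10.1% were called, with 5.16% higher and 4.9% lower. These were 2252, 468 and 1433 genes. Leaving out OV90 replicate 1 gave 939 for the first count, and leaving out replicate 2 gave 1360. The second became 224, 274 and 1309 on leaving out OV90 replicates 1, 2 and 3 in turn. It became 1084 on leaving out OV90CisR1 replicate 3, and 133, 140 and 136 for the OV90CisR2 replicates in order. The third became 2324 on leaving out OV90 replicate 3 and 933 on leaving out OV90CisR1 replicate 1. For the OV90CisR2 replicates in order it became 405, 601 and 391. With OV90 replicate 3 and OV90CisR1 replicate 3 both left out, which was chosen after seeing the data, the counts were 3879, 3646 and 3729.

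Other adhesion molecules of the superfamily moved individually and in both directions. Of 72 listed genes 40 were tested. In OV90CisR1 against OV90, 4 rose and 1 fell, or 12.5% of those tested beside the background of 15.8% called, and the median log2 fold change was 0.26, against -0.01 over all tested genes. JAM3, a junctional adhesion molecule of tight junctions, rose from 834, 726 and 1084 normalised reads in OV90 to 1618, 1697 and 1967 in OV90CisR1. Its libraries did not overlap, and its log2 fold change was 1.01 ± 0.16 (SE, limma adjusted p = 0.0027). In OV90CisR2 it had 1165, 1316 and 1248, with a log2 fold change against OV90 of 0.51 and an adjusted p of 0.11. NECTIN2, an adherens junction molecule named after its values were seen, rose by 0.82 ± 0.14 (adjusted p = 0.0053). ICAM5, a neuronal ligand of LFA-1 in the gene cluster of ICAM1, rose by 1.34 ± 0.35 (adjusted p = 0.027). MADCAM1, the mucosal addressin, rose by 1.84 ± 0.51 (adjusted p = 0.033) from a mean of 2.32 to 10.5 normalised reads.

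CXADR, the coxsackievirus and adenovirus receptor of tight junctions, was the listed gene that fell. It stood at 231, 203 and 101 normalised reads in OV90, 41.3, 45.6 and 36.0 in OV90CisR1, and 194, 213 and 185 in OV90CisR2. OV90CisR1 lay below every other library, its log2 fold change against OV90 being -2.02 ± 0.28 (limma adjusted p = 0.0016), while OV90 and OV90CisR2 overlapped (0.23, adjusted p = 0.73). The calls of JAM3, NECTIN2 and CXADR in this comparison held with each library left out in turn. That of ICAM5 was lost without OV90 replicate 1 or OV90CisR1 replicate 2 or 3 (adjusted p = 0.062 to 0.096). That of MADCAM1 was lost on leaving out any library but OV90 replicate 1 or OV90CisR1 replicate 1 (0.056 to 0.10). With single libraries left out, the count of called genes in the list ranged from 3 to 6.

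Of the 40 genes, 1 rose and none fell in OV90CisR2 against OV90, beside the background of 3.29%, with a median log2 fold change of -0.03. The gene was MPZL2, an epithelial junction protein also called EVA1. It had 3.08, 1.95 and 0 normalised reads in OV90, 7.23, 3.18 and 3.37 in OV90CisR1, and 26.6, 29.7 and 47.5 in OV90CisR2. OV90CisR2 lay above every other library, its log2 fold change against OV90 being 3.91 ± 0.58 (limma adjusted p = 0.0036). CHL1, the close relative of L1CAM and named after its values were seen, had 14.4, 10.7 and 0 normalised reads in OV90, 2.07, 1.06 and 2.25 in OV90CisR1, and 14.3, 19.2 and 35.2 in OV90CisR2. Its log2 fold change in OV90CisR2 against OV90CisR1 was 3.03 ± 0.88 with an adjusted p of 0.052. OV90 overlapped OV90CisR2 in CHL1 because its replicate 1 held 14.4, and L1CAM itself was lowest in OV90CisR2.

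Between the resistant lines, 4 listed genes were higher in OV90CisR2 than in OV90CisR1 and 2 were lower, beside the background of 10.1%, with a median log2 fold change of -0.32. Those higher were CXADR, MPZL2, ICAM3 and IGSF9. ICAM3, a leukocyte adhesion molecule of the ICAM1 cluster, had 8.26, 8.48 and 10.1 normalised reads in OV90CisR1 and 25.6, 34.1 and 20.2 in OV90CisR2. IGSF9, a neuronal member, had 15.5, 17.0 and 13.5 in OV90CisR1 and 30.7, 46.4 and 38.7 in OV90CisR2. Neither gene overlapped between the resistant lines. The genes that were lower, named after their values were seen, were SDK2 (-1.16, limma adjusted p = 0.0067) and PVR (-0.59, adjusted p = 0.03). The calls of ICAM3 and IGSF9 were lost without OV90CisR1 replicate 1 or 2 or any OV90CisR2 replicate, with adjusted p-values of 0.079 to 0.13 and 0.054 to 0.12. That of MPZL2 was lost without any OV90CisR2 replicate (0.060 to 0.10), that of PVR without OV90CisR1 replicate 1 or any OV90CisR2 replicate (0.051 to 0.13), and the count for the list ranged from 2 to 10 with single libraries left out.

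**Figure D4:**
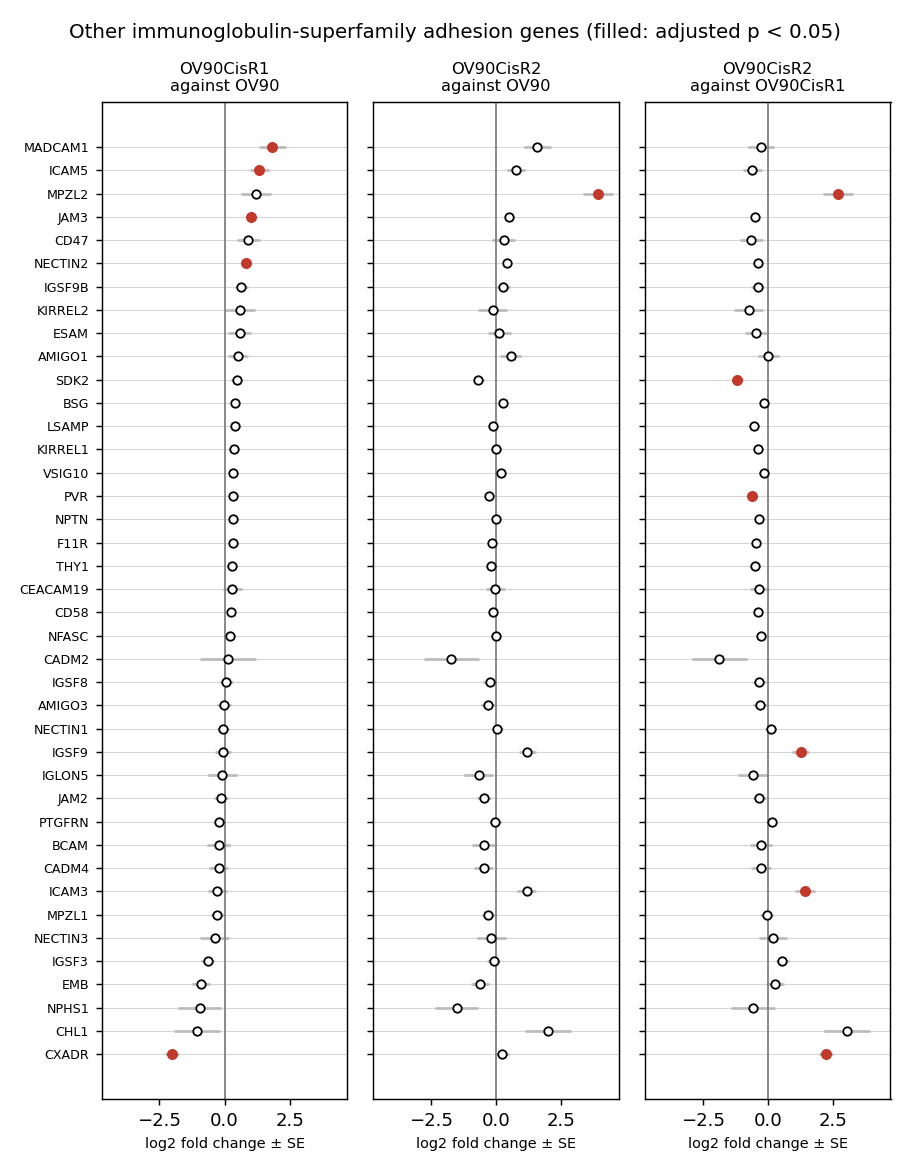
Log2 fold change ± SE (x axis) of 40 tested adhesion genes of the superfamily (y axis, ordered by OV90CisR1 against OV90) in the 3 comparisons, with filled points at a limma adjusted p under 0.05. Filled points stand on both sides of 0 in OV90CisR1 against OV90, from CXADR at -2.02 to MADCAM1 at 1.84, and MPZL2 at 3.91 is the filled point in OV90CisR2 against OV90.

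Among binding partners of the members, the receptor of ALCAM on lymphocytes was not detected, while the integrin subunits ITGAV, ITGB1 and ITGB3 were called higher in OV90CisR1, ITGB1 and ITGB3 only in some of the fits with a library left out. The subunits ITGA5 (0.58, limma adjusted p = 0.14) and ITGA9 (-0.11, adjusted p = 0.87) did not pass. CD6 was at 0 in all 9 libraries, which allows up to 2.62 to 3.37 normalised reads in each. The subunits of LFA-1, the receptor of ICAM1, were below the filter, with means of 1.60, 0 and 0.924 for ITGAL and 1.27, 0.698 and 0.878 for ITGB2. ITGA4, the alpha subunit of VLA-4, was below it too, at 4.97, 3.92 and 1.61. Of 23 listed partners 12 were tested. In OV90CisR1 against OV90, 4 rose and 1 fell, or 41.7% of those tested beside the background of 15.8%, and the median log2 fold change was 0.17.

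ITGAV, the alpha-V integrin subunit, stood at 561, 464 and 433 normalised reads in OV90, 1105, 1102 and 1057 in OV90CisR1, and 393, 461 and 423 in OV90CisR2. OV90CisR1 was above every other library, its log2 fold change against OV90 being 1.17 ± 0.13 (limma adjusted p = 0.00061), whereas OV90CisR2 overlapped OV90 (-0.19, adjusted p = 0.52). ITGB3, its beta-3 partner, rose by 0.93 ± 0.27 (adjusted p = 0.041), and FGFR1, a receptor that NCAM1 and L1CAM engage, rose by 0.48 ± 0.14 (adjusted p = 0.043). ITGB1, the beta-1 subunit, rose by 0.44 ± 0.13 (adjusted p = 0.043), from 2127, 2210 and 2053 to 2955, 3218 and 2533. LGALS3, which encodes the lectin galectin-3, fell by 1.39 on the log2 scale (SE 0.30, adjusted p = 0.012), from 361, 316 and 230 to 154, 143 and 65.2.

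The call of ITGAV held with each library left out in turn. Those of ITGB1 and FGFR1 were lost on leaving out any library but OV90CisR1 replicate 3 (limma adjusted p = 0.053 to 0.12 and 0.054 to 0.14). That of ITGB3 was lost on leaving out any but OV90CisR1 replicate 2 (0.051 to 0.11), and that of LGALS3 without OV90 replicate 1 (0.055). The count for the list ranged from 1 to 5 with single libraries left out. For OV90CisR2 against OV90, limma called 0 of the 12 partners, with 3 at an unadjusted p under 0.05 and 0 by edgeR or DESeq2. The median was 0.09. Over all tested genes, limma called 3.29%, and 2515 of 14233 had an unadjusted p under 0.05. ITGAV and ITGB1, 2 of the 12, were lower in OV90CisR2 than in OV90CisR1, beside the background of 10.1% called. None was higher, and the median was 0.10.

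Of 24 listed cytoplasmic adaptors, which link these molecules to actin and spectrin, 22 were tested. In OV90CisR1 against OV90, 4 fell and none rose, or 18.2% of those tested, a share near the background of 15.8%, with a median log2 fold change of -0.15. ANK2, the ankyrin that anchors L1CAM to spectrin, had 97.7, 101 and 36.9 normalised reads in OV90, 19.6, 18.0 and 16.9 in OV90CisR1, and 17.4, 30.6 and 17.6 in OV90CisR2. Both resistant lines lay below every OV90 library, with log2 fold changes of -1.92 ± 0.40 (limma adjusted p = 0.011) and -1.71 ± 0.40 (adjusted p = 0.041). FYN, a Src-family kinase downstream of NCAM1, had 252, 268 and 148 in OV90, 75.4, 81.7 and 66.3 in OV90CisR1, and 160, 122 and 169 in OV90CisR2. OV90CisR1 was below all other libraries, with a log2 fold change of -1.53 ± 0.24 (adjusted p = 0.0029). EPB41L1, a protein of the band 4.1 family, fell by 1.29 on the log2 scale (SE 0.23, adjusted p = 0.0052).

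Of the ezrin, radixin and moesin proteins, which tie ALCAM, L1CAM and ICAM1 to actin, MSN fell in OV90CisR1. Moesin (MSN) had 1922, 1634 and 2046 normalised reads in OV90 and 1351, 1262 and 1152 in OV90CisR1, which gave -0.57 ± 0.12 (SE) as log2 fold change (adjusted p = 0.013). Ezrin (EZR) averaged 753, 968 and 1067 in OV90, OV90CisR1 and OV90CisR2 and radixin (RDX) 1979, 1756 and 2167, and neither passed the test in any comparison (adjusted p = 0.073 to 0.69). The adaptor ANK2 was the 1 that fell in OV90CisR2 against OV90, beside the background of 3.29% called. None rose, and the median was 0.03. FYN and MSN, 2 of the 22 or 9.09%, were higher in OV90CisR2 than in OV90CisR1, a share near the background of 10.1%. None was lower, and the median was 0.18.

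The falls of FYN and EPB41L1 in OV90CisR1 kept their calls with each library left out in turn. Those of ANK2 and MSN were lost without OV90 replicate 1 (limma adjusted p = 0.0502 and 0.054). In OV90CisR2 the call of ANK2 was lost on leaving out any library but OV90 replicate 3 or OV90CisR1 replicate 3 (0.059 to 0.20). Between the resistant lines, FYN lost its call without OV90CisR1 replicate 1 or OV90CisR2 replicate 1 or 3 (0.059 to 0.12), and MSN on leaving out any library but OV90 replicate 2 or 3 (0.068 to 0.18). With single libraries left out, the counts for the list in the 3 comparisons ranged from 2 to 4, 0 to 2 and 0 to 2.

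Among sheddases and modifying enzymes, MMP14 rose most in OV90CisR1. Of 19 listed genes 15 were tested. Against OV90, 3 rose and none fell in OV90CisR1, or 20.0% of those tested beside the background of 15.8%, with a median log2 fold change of 0.19. MMP14, the membrane-type matrix metalloprotease, had 701, 591 and 575 normalised reads in OV90, 1887, 1481 and 2385 in OV90CisR1, and 618, 929 and 617 in OV90CisR2. OV90CisR1 lay above every other library, its log2 fold change being 1.60 ± 0.20 (limma adjusted p = 0.0011), and OV90CisR2 overlapped OV90 (0.19, adjusted p = 0.69). RHBDF1, an inactive rhomboid that carries ADAM17 to the surface, rose by 0.71 ± 0.21 (adjusted p = 0.041). PSENEN, a subunit of gamma-secretase, rose by 0.58 ± 0.17 (adjusted p = 0.038).

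ADAM17, the protease that sheds ALCAM, averaged 590, 846 and 570 normalised reads in OV90, OV90CisR1 and OV90CisR2. ADAM10, which cuts L1CAM, averaged 457, 693 and 489. Neither passed the test in any comparison, with limma adjusted p-values of 0.074 to 0.99 for ADAM17 and 0.14 to 0.88 for ADAM10. Of the 15, limma called 0 in OV90CisR2 against OV90, with 2 at an unadjusted p under 0.05 and 0 by edgeR or DESeq2. The median was 0.09. Over all tested genes, limma called 3.29%, and 2515 of 14233 had an unadjusted p under 0.05. MMP14, PSENEN and RHBDF2, 3 of the 15, were lower in OV90CisR2 than in OV90CisR1, beside the background of 10.1% called. None was higher, and the median was -0.28.

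The calls of MMP14 held with each library left out in turn. For OV90CisR1 against OV90, that of RHBDF1 was lost on leaving out any library but OV90 replicate 3 or OV90CisR1 replicate 1 or 2 (limma adjusted p = 0.060 to 0.13). That of PSENEN was lost on leaving out any but OV90CisR1 replicate 2 or 3 (0.056 to 0.11). Between the resistant lines the call of PSENEN was lost without OV90 replicate 2, OV90CisR1 replicate 1 or any OV90CisR2 replicate (0.053 to 0.12). That of RHBDF2 was lost on leaving out any library but OV90 replicate 3 or OV90CisR1 replicate 1 (0.061 to 0.15). With single libraries left out, the counts for the list in the 3 comparisons ranged from 1 to 3, 0 to 1 and 1 to 5.

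**Figure D5:**
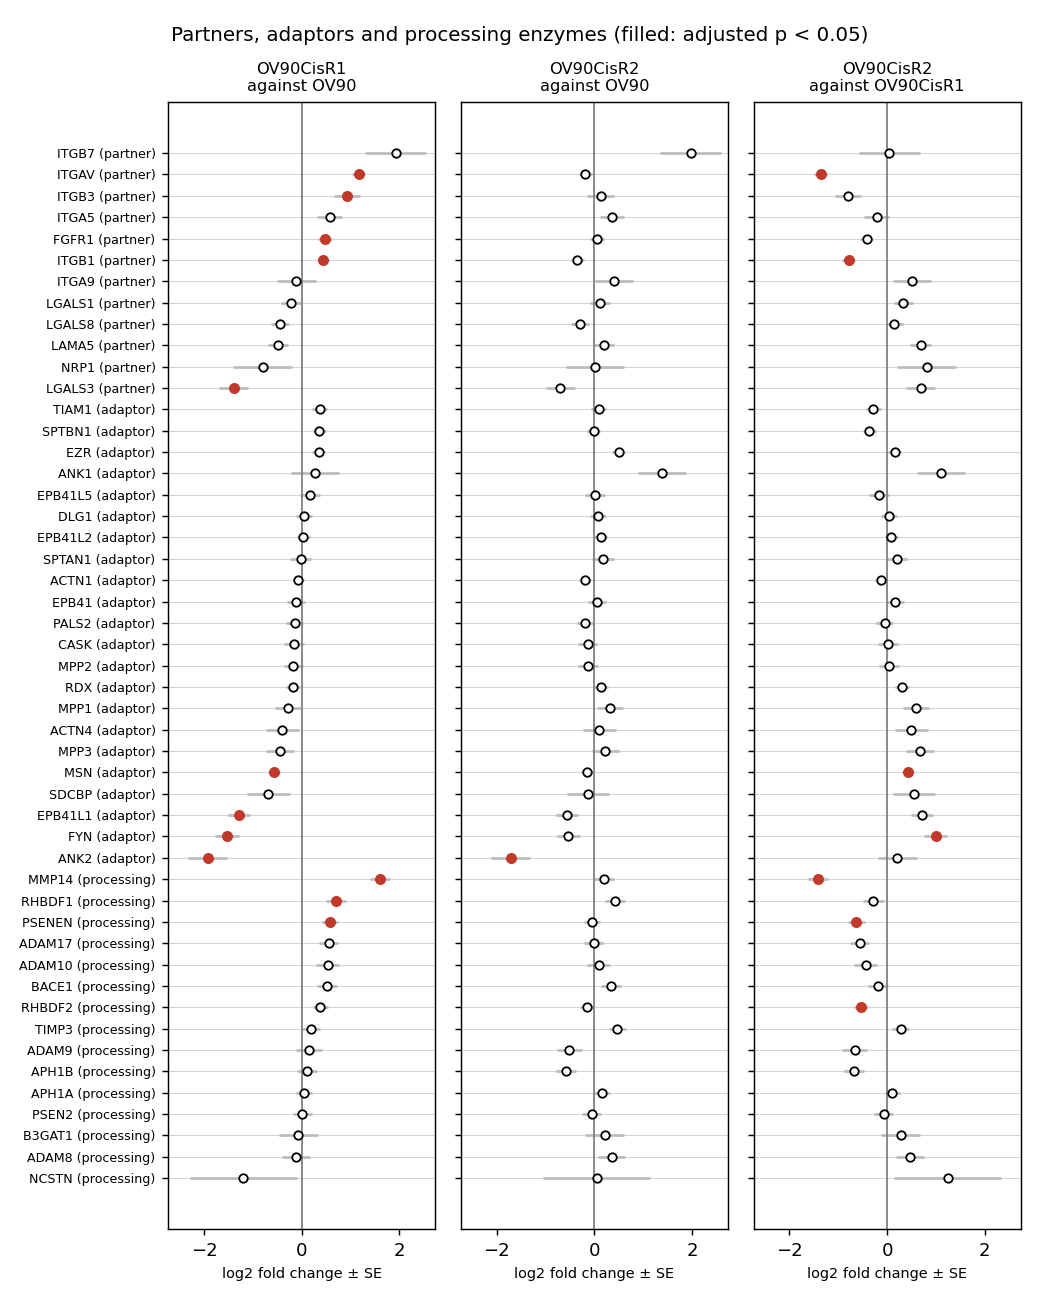
Log2 fold change ± SE (x axis) of tested binding partners, cytoplasmic adaptors and processing enzymes (y axis, grouped by role) in the 3 comparisons, with filled points at a limma adjusted p under 0.05. In OV90CisR1 against OV90 the filled partners lie from LGALS3 at -1.39 to ITGAV at 1.17, the filled adaptors lie below 0 and the filled enzymes above 0, and ANK2 at -1.71 is the filled point in OV90CisR2 against OV90.

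NF-kappaB and TNF pathway genes, the known inducers of ICAM1 and VCAM1 in endothelium, included rises and falls. Of 33 listed genes 23 were tested. Against OV90, 3 rose and 3 fell in OV90CisR1, or 26.1% of those tested beside the background of 15.8%, with a median log2 fold change of -0.32. On recovered reads, edgeR called 4 of these genes and DESeq2 called 8. The chemokine CCL2 fell by 2.56 on the log2 scale (SE 0.66, limma adjusted p = 0.026), from 46.3, 38.9 and 32.4 normalised reads in OV90 to 10.3, 11.7 and 1.12 in OV90CisR1. The inhibitor of NF-kappaB NFKBIA fell by 0.47 (SE 0.14, adjusted p = 0.042), and BIRC3, an inhibitor of apoptosis that NF-kappaB induces, by 0.44 (SE 0.14, adjusted p = 0.047). NFKBIZ, a nuclear inhibitor of the same family, rose by 1.16 ± 0.35 (adjusted p = 0.044). The adaptor TRAF2 rose by 0.87 ± 0.22 (adjusted p = 0.024), and the TNF receptor TNFRSF1A by 0.51 ± 0.15 (adjusted p = 0.04).

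BIRC3 also fell in OV90CisR2 against OV90, by 0.56 on the log2 scale (SE 0.14, limma adjusted p = 0.048). It was 1 of the 23, beside the background of 3.29% called, and none rose, with a median of -0.05. Between the resistant lines limma called 0, with 6 at an unadjusted p under 0.05, 0 by edgeR and 1 by DESeq2. The median was 0.09. Over all tested genes, limma called 10.1%, and 3999 of 14233 had an unadjusted p under 0.05. The NF-kappaB subunit RELA averaged 567, 448 and 466 normalised reads in OV90, OV90CisR1 and OV90CisR2 and passed in no comparison (adjusted p = 0.15 to 0.78). Each call in this list depended on single libraries. In OV90CisR1, CCL2 lost its call without OV90 replicate 1 or 2 (0.065 to 0.087) and TRAF2 without OV90 replicate 1 or 2 or OV90CisR1 replicate 3 (0.052 to 0.072). NFKBIA lost it on leaving out any library but OV90 replicate 3 (0.064 to 0.15), NFKBIZ on leaving out any but OV90 replicate 2 (0.056 to 0.10), BIRC3 on leaving out any but OV90CisR1 replicate 2 (0.065 to 0.098), and TNFRSF1A without any of the 9 (0.055 to 0.094). In OV90CisR2, BIRC3 lost it on leaving out any library but OV90 replicate 3 or OV90CisR1 replicate 3 (0.058 to 0.21). With single libraries left out, the counts for the list in the 3 comparisons ranged from 0 to 6, 0 to 3 and 0 to 2.

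With OV90 replicate 3 and OV90CisR1 replicate 3 both left out, 27.8%, 26.2% and 26.8% of 13936 tested genes were called in OV90CisR1 against OV90, OV90CisR2 against OV90 and OV90CisR2 against OV90CisR1. The counts of these lists read against those shares. In OV90CisR1 against OV90, 7 other adhesion molecules then rose and 2 fell, 4 partners rose and 2 fell, 4 adaptors fell and none rose, 4 enzymes rose and none fell, and 3 pathway genes rose and 5 fell. For OV90CisR2 against OV90 the rises and falls were 5 and 5, 2 and 2, 2 and 3, 1 and 2, and 1 and 7, in the same order of lists. For OV90CisR2 against OV90CisR1 they were 5 and 10, 2 and 3, 6 and 0, 0 and 8, and 4 and 1. For the other adhesion molecules between the resistant lines, the direction with more calls turned from rises to falls.

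Markers of other cells were summed per library beside these groups. The 16 leukocyte markers summed to 2.06 to 26.3 normalised reads in OV90, 12.4 to 25.5 in OV90CisR1 and 9.68 to 18.4 in OV90CisR2, and 6, 6 and 7 of them were at 0 throughout the group. The 16 endothelial and fibroblast markers summed to 3968 to 5299, 7230 to 12048 and 4393 to 5728, with 8, 7 and 5 at 0. Within that sum, the collagen gene COL3A1 averaged 3139 ± 373 (SD, n = 3), 8776 ± 2865 and 3457 ± 773, so this sum, like ALCAM, was highest in OV90CisR1, and its part in the result was not tested. Of the 6 markers of that list that were tested, limma called 2 higher in OV90CisR1 than in OV90, COL3A1 (1.43, adjusted p = 0.0053) and DCN (1.08, adjusted p = 0.022). Over all tested genes, 15.8% were called in this comparison and 3.29% in OV90CisR2 against OV90. THY1 of the same list averaged 1075, 1310 and 925 normalised reads and passed in no comparison (limma adjusted p = 0.11 to 0.64). In OV90CisR2 against OV90 it called 2 higher, DCN (2.51, adjusted p = 0.0003) and LUM (3.36, adjusted p = 0.0047), which encode the matrix proteoglycans decorin and lumican. DCN averaged 36.5, 80.7 and 211 normalised reads and LUM 41.6, 79.0 and 426, so both were highest in OV90CisR2, unlike COL3A1. The call of DCN in OV90CisR1 was lost without OV90 replicate 1 or OV90CisR1 replicate 1 or 2 (0.064 to 0.081). The 15 ovarian carcinoma markers summed to 52.4 to 79.2, 70.2 to 117 and 109 to 130, with 6, 5 and 6 at 0. Of the 2 that were tested, KRT8 was called higher in OV90CisR2 than in OV90 (3.32 ± 0.76, adjusted p = 0.040), a call lost on leaving out any library but OV90 replicate 3 or OV90CisR1 replicate 3 (0.055 to 0.19).

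Genes within 1 Mb of the other members were counted by call. Near MCAM, 30 were tested, and 6 rose and none fell in OV90CisR1 against OV90, beside the background of 15.8% called. Those that rose were UBE4A, KMT2A, HYOU1, DPAGT1, C2CD2L and OAF, with log2 fold changes from 0.62 for KMT2A to 1.19 for OAF. The call of DPAGT1 was lost without OV90 replicate 1 (limma adjusted p = 0.056), and that of C2CD2L without OV90 replicate 1 or 2 or OV90CisR1 replicate 1 or 3 (0.051 to 0.084). Against OV90, OAF rose in OV90CisR2 by 0.79 (adjusted p = 0.019) and CBL fell by 0.54 on the log2 scale (adjusted p = 0.036). The call of OAF was lost without OV90 replicate 2 or any OV90CisR2 replicate (0.075 to 0.12), and that of CBL on leaving out any library but OV90 replicate 3 or OV90CisR1 replicate 3 (0.051 to 0.20).

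Near NCAM1, limma called 0 of 11 tested genes in each of the 3 comparisons, with 2, 1 and 2 at an unadjusted p under 0.05. Of those 11, edgeR called 0 in each comparison, and DESeq2 called 0, 0 and 1. Near CADM1, limma, edgeR and DESeq2 called 0 of 3 in each, with 1, 1 and 0 at an unadjusted p under 0.05. Near L1CAM, 45 genes were tested, with 5 rises and 4 falls in OV90CisR1 against OV90, 1 fall in OV90CisR2 against OV90, and 1 rise and 3 falls in OV90CisR2 against OV90CisR1. Near ICAM1, 47 were tested, with 5 rises, 1 rise, and 3 rises and 4 falls in these comparisons. Near VCAM1, 13 were tested, with 1 rise and 1 fall, none, and 1 fall. The background shares were 15.8%, 3.29% and 10.1%. With OV90 replicate 3 and OV90CisR1 replicate 3 both left out, the rises and falls near MCAM were 10 and 4, 7 and 4, and 5 and 8. Near L1CAM they were 5 and 7, 8 and 6, and 8 and 8, near ICAM1 13 and 2, 12 and 6, and 7 and 8, and near VCAM1 2 and 1, 0 and 0, and 0 and 2. LIMASI, which overlaps ICAM1, averaged 1.25, 0.344 and 1.02 normalised reads in OV90, OV90CisR1 and OV90CisR2, and CADM1-AS1 was at 0 in every library.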

How the data were processed

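Messenger RNA of 9 libraries was measured with a QuantSeq 3′ kit and single-end sequencing, per the labels' protocols. The authors deposited 1 table of normalised values per gene symbol, a signal in units of scaled reads. The submitters' processing notes name Bowtie2, bedtools, edgeR and the genome build GRCh38. How reads were counted, on which annotation and with what regard to strand, is not given in the sources used here. In every column 100% of values above 0 were whole multiples of 1 step (tolerance 1e-06), so reads could be recovered. A read count of 3 was worth 2.62 to 3.37 normalised values.

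Genes at 1 CPM of the column total in at least 3 libraries were tested in R 4.3.3 on log2 values after adding 1. The limma 3.58.1 fit had a variance trend and a mean per group over all 9 libraries. P-values were adjusted over 14233 genes by the Benjamini-Hochberg method at 0.05. The comparisons share libraries and are not independent. On recovered reads, the edgeR 4.0.16 quasi-likelihood test called 2286, 506 and 1515 genes in OV90CisR1 against OV90, OV90CisR2 against OV90 and OV90CisR2 against OV90CisR1, and DESeq2 1.42.0 called 2788, 878 and 2014. The procedure was tested on simulated data. Counting intervals are exact and cover counting error only, since 3′ reads without molecular identifiers are not independent molecules.

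The members and gene lists were chosen with earlier results of these data known. Named genes are the members, listed partners and regulators, up to 4 called genes per list and comparison with the largest fold change, the genes most like each tested member, and called neighbours within 1 Mb of ALCAM, MCAM, NCAM1 or CADM1. Others are said to be named after their values were seen. Markers are named where they describe the cells. 1 gene was removed from the list of enzymes and is not reported here. Alternatives were pseudocounts of 0.1 and 5, other filters (5 CPM, or any library above 0), quantile and TMM scaling, fits of the groups compared alone, a replicate block, single libraries left out, edgeR and DESeq2. Positions and promoters are from RefSeq on GRCh38.p14 and transcripts from GENCODE.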

Additional observations from a re-analysis of the deposited data

Results flagged for a closer look

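For 18 genes of the 86 that were put to it, the effect differed between the resistant lines, by the direct limma test of OV90CisR2 against OV90CisR1 over all tested genes (adjusted p under 0.05). Of all tested genes, 10.1% were called in this comparison. Some of the 86 were named because they were called in it, which fixed their result in advance, so the 18 are a description. Log2 fold changes below are OV90CisR2 minus OV90CisR1. ALCAM, the gene LOC124906263 inside it and the genes picked for their likeness to a member were not put to it, because the choice fixes their pattern. Of the adhesion molecules, CXADR differed by 2.24 (SE 0.28, adjusted p = 0.001), MPZL2 by 2.70 (SE 0.58, adjusted p = 0.016), ICAM3 by 1.45 (SE 0.38, adjusted p = 0.035) and IGSF9 by 1.27 (SE 0.31, adjusted p = 0.028). SDK2 differed by -1.16 (SE 0.21, adjusted p = 0.0067) and PVR by -0.59 (SE 0.15, adjusted p = 0.03).

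Of the integrin subunits, ITGAV differed by -1.35 (SE 0.13, adjusted p = 0.0003) and ITGB1 by -0.79 (SE 0.13, adjusted p = 0.0048). Of the adaptors, FYN differed by 0.99 (SE 0.24, adjusted p = 0.025) and MSN by 0.43 (SE 0.12, adjusted p = 0.0499), the latter next to the threshold. Of the processing enzymes, MMP14 differed by -1.41 (SE 0.20, adjusted p = 0.0023), PSENEN by -0.63 (SE 0.17, adjusted p = 0.036) and RHBDF2 by -0.53 (SE 0.15, adjusted p = 0.042).

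Near MCAM, HYOU1 differed by -0.59 and DPAGT1 by -0.62. The call of HYOU1 was lost on leaving out any library but OV90 replicate 3 or OV90CisR2 replicate 2 (adjusted p = 0.052 to 0.20), and that of DPAGT1 on leaving out any but OV90 replicate 3 or OV90CisR1 replicate 1 (0.052 to 0.17).

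Of the fibroblast markers, COL3A1 differed by -1.31 (SE 0.25, adjusted p = 0.0094), DCN by 1.43 (SE 0.27, adjusted p = 0.0083) and LUM by 2.75 (SE 0.52, adjusted p = 0.009). The call of DCN was lost without OV90CisR2 replicate 1 (adjusted p = 0.054) and that of LUM without OV90CisR2 replicate 3 (0.0502). SDK2, PVR and these markers were chosen after their values were seen.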

How the results depend on the processing

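ALCAM kept its direction in the 3 comparisons under all alternatives run, with log2 fold changes of 3.97 to 4.07 in OV90CisR1 against OV90, 0.81 to 0.94 in OV90CisR2 against OV90 and -3.21 to -3.08 between the resistant lines. L1CAM and NCAM1 kept their direction too. In OV90CisR2 against OV90, L1CAM passed the threshold in the fit of these groups alone (-0.98), with DESeq2 (-1.0) and with OV90 replicate 3 and OV90CisR1 replicate 3 both left out (-1.15), an omission chosen after seeing the data. With single libraries left out it ranged from -1.15 to -0.87, and it also passed without OV90 replicate 3 or without OV90CisR1 replicate 3. Between the resistant lines L1CAM passed with both left out (-0.86) and without OV90CisR1 replicate 3 alone. It ranged from -0.86 to -0.25 with single libraries left out. NCAM1 in OV90CisR2 against OV90 passed with DESeq2 (1.54). Counts of called members include ALCAM, which was chosen for its difference, so its part in them is no support. The count of members called, ALCAM included, was 1 in all alternatives except those that follow. For OV90CisR2 against OV90 it was 2 for the groups alone, 2 with both libraries left out and 3 with DESeq2, and between the resistant lines 2 with both left out. It ranged from 1 to 2 with single libraries left out in these comparisons.

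The number of genes called in OV90CisR1 against OV90 was 817 for the groups alone and 3879 with both libraries left out, and 939 to 2459 with single libraries left out. For OV90CisR2 against OV90 it was 709, 3646 and 878 (DESeq2), and 133 to 1309. Between the resistant lines it was 3729 with both left out, and 391 to 2324. The cause was not tested. With a replicate block the counts were 1615, 287 and 875. The replicate numbers did not pair the libraries. Deviations of libraries with the same number had correlations of -0.307 to 0.0899, and a library matched its own number best in 1 of 9 pairs.

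Depth limits MCAM, CADM1, ICAM1 and VCAM1, and NCAM1 rests on 26 reads in OV90.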
